A study of Mus musculus with 13 samples.

Results

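Fibroblast growth factor (FGF) signalling was described through 10 genes in mouse mammary fibroblasts: the ligand genes Fgf1, Fgf2, Fgf7, Fgf9, Fgf10 and Fgf18, the receptor genes Fgfr1, Fgfr2 and Fgfr3, and Fgfrl1, which encodes a receptor-like protein. The genes were taken by symbol from the 32285 genes of the count matrices, and all 10 were found. Levels were read in fibroblast barcodes. These had 500 to 7500 genes, at most 10% mitochondrial UMIs (unique molecular identifiers, one per captured transcript), at least 50 UMIs per 10000 from Dcn, Lum and Col1a2 together, and no UMI of Epcam, Pecam1, Rgs5, Sox10, Ptprc or Myog. This definition kept 100523 of 120355 barcodes. Epithelial barcodes of the same libraries served as the contrast.

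The data were 13 droplet single-cell RNA libraries made with a 10x 3′ chemistry. Libraries of 5 developmental stages (puberty at 4 weeks by the label, 9-week virgin adult, pregnancy day 14.5, lactation day 10 and involution day 4) had 1 library each, from C57BL/6 females and from a sort of cells lacking CD24 and the lineage markers CD31, CD45 and TER-119. Placebo and hormone-treated 9-week C57BL/6 females had 2 libraries each under the same gate. The treated group received medroxyprogesterone acetate, a synthetic progestin, with estrogen (MPA+E). Per the labels each of these conditions pooled 2 females, and per the methods each hormone replicate did so. The raGFP-Wnt1 model carried an MMTV-Wnt1 transgene, which drives the Wnt1 ligand from a promoter active in mammary epithelium, and a Pdgfra-GFP allele, with C57BL/6 and FVB ancestry mixed. Its hyperplastic glands and tumors gave 2 libraries each of sorted GFP-positive cells. Hyperplasia and tumor of one number came from the same mouse (mouse 1 at 45 weeks, mouse 2 at 17 weeks). Both groups carried the transgene and the reporter, and the sort kept Pdgfra-expressing cells only.

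FGF ligands are secreted proteins that bind receptor tyrosine kinases on the cell surface together with heparan sulfate, a sugar chain of the matrix and the cell surface. Alternative splicing of an immunoglobulin domain of the receptors sets which ligands bind. In epithelial organs, mesenchymal Fgf10 and Fgf7 act on an epithelial splice form of Fgfr2, and Fgf10 and this receptor are needed to form the mammary gland. Fgf9 and Fgf18 belong to families that signal mainly to mesenchymal receptor forms, whereas Fgf1 binds all receptor forms and Fgf2 lacks a classical secretion signal. Activated receptors raise the expression of feedback inhibitors such as the Sprouty proteins and Dusp6. A 3′ count cannot separate the splice forms of a receptor, and levels are compared below only within a gene, not between genes.

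Promoters are shown for the 3 ligands that carried the differences called over all fibroblasts of a group. Each line gives the 250 bases upstream of the RefSeq start in GRCm38.p6, 5′ to 3′ on the gene's strand, with CpG dinucleotides in capitals.
Fgf18: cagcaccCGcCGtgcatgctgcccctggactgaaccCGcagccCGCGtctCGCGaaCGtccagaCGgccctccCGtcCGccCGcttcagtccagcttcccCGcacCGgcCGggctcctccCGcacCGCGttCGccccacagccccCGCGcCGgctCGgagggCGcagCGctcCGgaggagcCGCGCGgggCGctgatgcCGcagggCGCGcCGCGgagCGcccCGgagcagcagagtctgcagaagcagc
Fgf9: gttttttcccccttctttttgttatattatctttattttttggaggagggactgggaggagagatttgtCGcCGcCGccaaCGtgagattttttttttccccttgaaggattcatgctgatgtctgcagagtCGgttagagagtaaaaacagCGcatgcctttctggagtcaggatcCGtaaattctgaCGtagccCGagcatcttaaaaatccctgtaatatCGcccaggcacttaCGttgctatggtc
Fgf10: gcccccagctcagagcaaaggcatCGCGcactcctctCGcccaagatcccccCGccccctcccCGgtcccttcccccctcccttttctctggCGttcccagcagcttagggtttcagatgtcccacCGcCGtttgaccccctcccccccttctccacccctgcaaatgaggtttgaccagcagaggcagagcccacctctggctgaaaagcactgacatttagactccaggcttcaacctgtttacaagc
The Fgf18 window is chr11:33147401-33147650 (minus strand), directly upstream of the gene (ENSMUSG00000057967). Its GC content was 77.2% and it held 37 CpGs, against medians of 52.4% and 6 CpGs over 32851 promoters of the same length. Fewer CpGs were found in 97.8% of those promoters. The Fgf9 window is chr14:58072436-58072685 (plus strand, ENSMUSG00000021974), with a GC content of 44.8% and 11 CpGs. The Fgf10 window is chr13:118714449-118714698 (plus strand, ENSMUSG00000021732), with a GC content of 61.2% and 8 CpGs. For Fgf9 and Fgf10 the RefSeq start lies inside the longer gene span that GENCODE gives. The 6 letters TGTTCT, or AGAACA on the other strand, a half-site bound by the progesterone, glucocorticoid and androgen receptors, occurred in 16.08% of all promoters (5284). They were in none of the windows of the 8 members with a RefSeq promoter, which says only that these letters were not found there. Fgf1 and Fgfr1 had no entry in that table.

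Fibroblast barcodes made up 84.7% to 94.5% of filtered barcodes per library (4236 to 11951), with 47521842 to 102522735 UMIs per library and a median of 3990 (pregnancy) to 20256 (tumor 2) UMIs per barcode. Fibroblast markers, 3 of which the definition used, summed to 26442 to 64808 CPM (counts per 1000000 UMIs of the same barcodes). Epithelial markers summed to 2.97 to 75.1 CPM. Milk genes reached 597 CPM in lactation and at most 22.6 CPM elsewhere. Pairs of libraries shared 5 to 51 barcode sequences, at most 0.539% of the smaller library. The 10 members had between 605 (Fgfr3) and 259096 (Fgfr1) UMIs over all libraries and none was at 0 in any library. Fgf7 overlaps Fam227b, and Fgf2 overlaps Nudt6, in the annotation, so part of their reads could have been assigned to or withheld from the neighbour.

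Fgfr1, the main mesenchymal FGF receptor, was the steadiest member, and Fgf9 and Fgf10 spanned the widest ranges. Fgfr1 lay between 216 CPM (MPA+E 1) and 351 CPM (MPA+E 2), so its extremes were replicates of the same group. Fgf10, a ligand for epithelial Fgfr2, lay between 4.08 CPM (tumor 2) and 54.1 CPM (placebo 1), with a median of 26.4 CPM. Fgf9 ran from 0.368 CPM (MPA+E 1) to 6.88 CPM (tumor 1), with a median of 2.93 CPM. Fgf7, also a ligand of epithelial Fgfr2, ran from 26.9 CPM (pregnancy) to 65.6 CPM (MPA+E 1). Low counts limit Fgfr3, which stayed at 0.254 to 0.893 CPM. In each library, as in bulk RNA, fewer cells of a state and less RNA per cell cannot be told apart in a level summed over all fibroblasts.

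**Figure D1:**
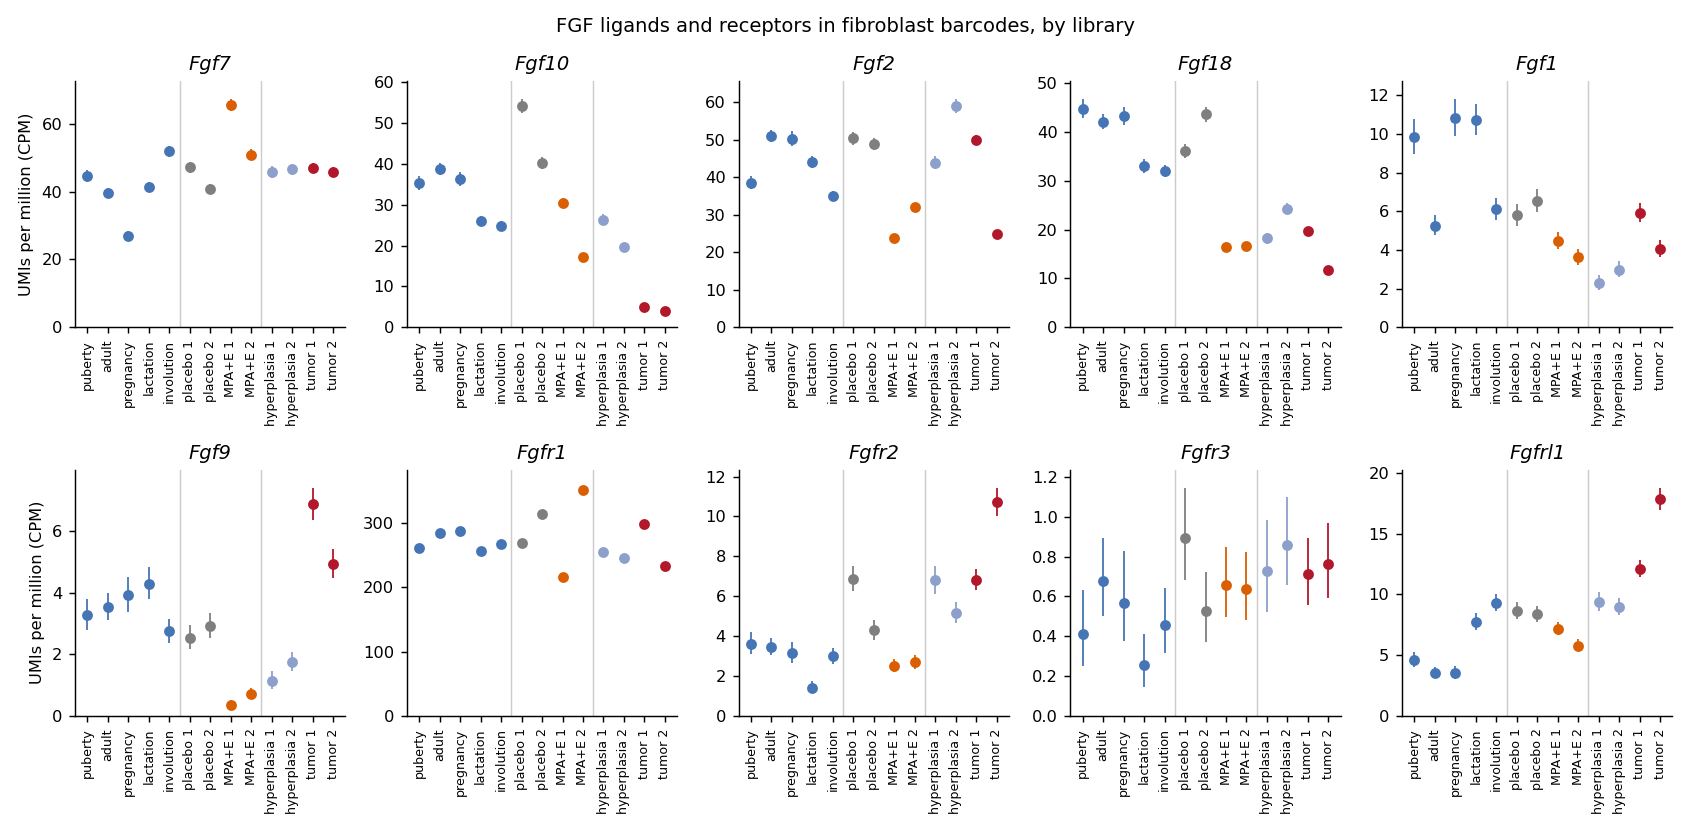
CPM of each of the 10 genes summed over fibroblast barcodes, 1 point per library, with the exact 95% Poisson interval of the count (counting error only). Fgf10 is at 4.93 and 4.08 CPM in the tumor libraries and Fgf9 at 0.368 and 0.702 CPM in the MPA+E libraries, each below all other libraries, and Fgfr1 stays between 216 and 351 CPM.

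Fibroblast states were clusters named from marker genes, with members and markers left out of the clustering features. They are described without a test, since states come from the same cells. A name followed by "-like" rests on those markers. The ligands differed in the state where their level was highest over the 9 libraries of wild-type mice. Fgf10 was highest in preadipocyte-like barcodes (Fabp4, Cd36) in 9 of 9 libraries, at 95.5 ± 44.3 CPM (SD, n = 9), against 27.1 ± 6.96 CPM in adipogenesis-regulatory-like barcodes (Gdf10, Clec11a) and 7.91 CPM in lobular-like barcodes (Thbs4, Bmp5). The preadipocyte-like state held 59.3% of Fgf10 UMIs in 19.6% of barcodes. Fgf10 was itself among the 10 leading genes of that cluster in the hormone libraries, so this level is a trait of the cluster and not a separate result.

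Fgf7 had a different order. It was highest in adipogenesis-regulatory-like barcodes in 9 of 9 libraries, at 110.7 ± 25.0 CPM, followed by lobular-like barcodes at 62.4 ± 20.4 CPM. Progenitor-like (Pi16, Dpp4) and preadipocyte-like barcodes had nearly the same mean, 42.4 and 42.3 CPM, with SDs above 10 CPM. The lowest level was in barcodes like extracellular matrix (ECM) remodelling fibroblasts (Crabp1, Stra6), at 14.3 ± 8.01 CPM, again in 9 of 9 libraries.

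Fgf2 and Fgf18 shared the progenitor-like state. Fgf2 was highest there in 9 of 9 libraries, at 74.7 ± 20.8 CPM, and at 11.4 to 23.7 CPM in the other 4 states. Fgf18 was at 59.5 ± 18.3 CPM in progenitor-like and 51.0 ± 22.0 CPM in lobular-like barcodes, neighbours that differ by less than their spread. ECM remodelling-like barcodes had 1.95 ± 0.739 CPM of Fgf18, the lowest in 9 of 9 libraries. Progenitor-like barcodes, 30.3% of the total, held 56.1% of Fgf18 UMIs and 45.8% of those of Fgfr1. At a finer clustering resolution (0.5 in place of 0.3), the state held 18.4% of barcodes, 37.5% of Fgf18 UMIs and 28.6% of those of Fgfr1. Fgfr1 was at 394.7 ± 55.4 CPM there (9 of 9 libraries) and at 176.5 to 263.6 CPM in the other states. After thinning each barcode to 3000 UMIs, 65.6% ± 5.52 of progenitor-like barcodes had a UMI of Fgfr1, and 89.7% before thinning. In the stage libraries the progenitor-like state included a cluster of 498 shallow barcodes.

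Fgf9 was highest in lobular-like barcodes in 8 of 9 libraries, at 8.94 ± 5.97 CPM, with 4.14 ± 3.01 CPM in progenitor-like, 2.12 ± 3.04 CPM in ECM remodelling-like and 0.347 CPM in preadipocyte-like barcodes. The exception was involution, where ECM remodelling-like barcodes had 7.17 CPM on 92 UMIs and lobular-like barcodes 2.52 CPM on 11 UMIs. The progenitor-like state, 30.3% of barcodes, held the most Fgf9 UMIs, 46.6%. The lobular-like state, 9.10% of barcodes, held 27.1% of Fgf9 UMIs, and 17.4% at the finer clustering resolution of 0.5. Fgfr2 was highest in ECM remodelling-like barcodes in 8 of 9 libraries, at 8.91 ± 6.80 CPM, and lowest in lobular-like barcodes at 0.834 CPM. Fgfrl1 was at 9.67 ± 2.43 CPM in preadipocyte-like and 8.31 ± 2.56 CPM in ECM remodelling-like barcodes, which overlap, and lowest in progenitor-like barcodes (3.80 CPM, 9 of 9 libraries). Fgf1 had no steady top state among the 5: adipogenesis-regulatory-like barcodes led in 4 of 9 libraries, at 7.97 ± 2.68 CPM. Clusters that took no name had more Fgf1, 16.0 ± 4.70 CPM. At that resolution 9 of 10 members had the same top state, the exception being Fgfrl1, which was then highest in ECM remodelling-like barcodes.

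**Figure D2:**
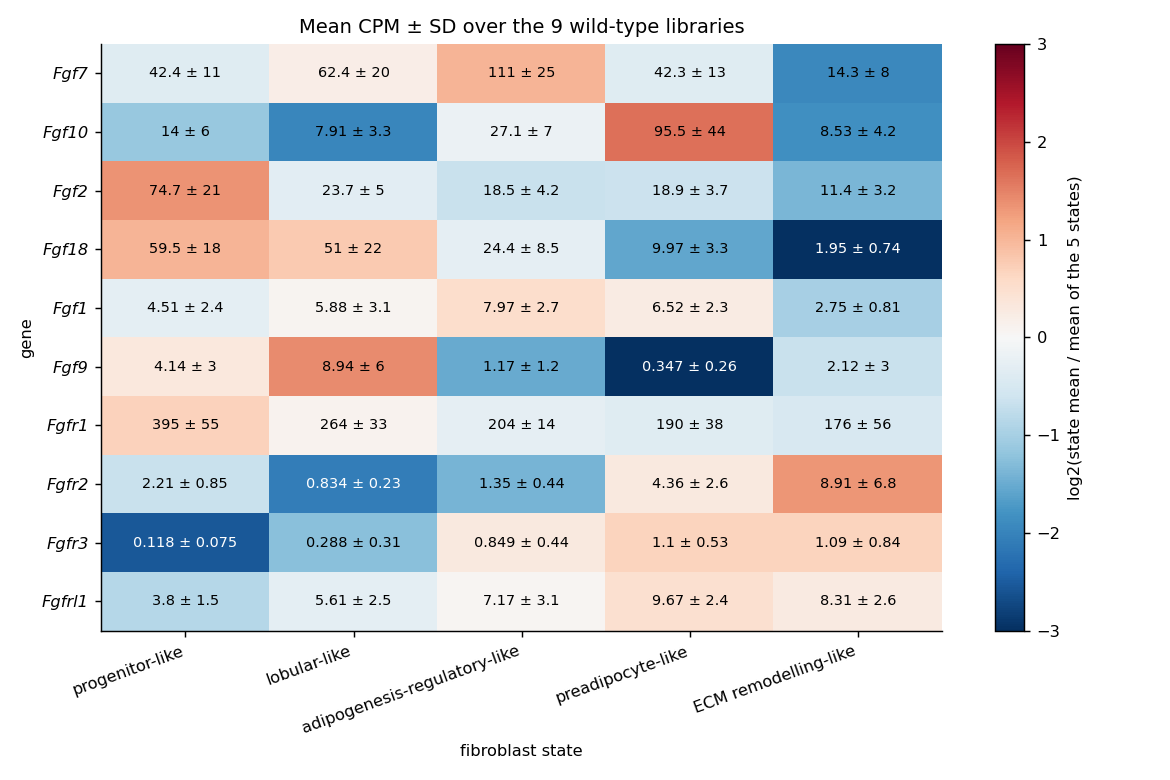
Mean ± SD in CPM over the 9 wild-type libraries for each gene (rows) and fibroblast state (columns), colored by the log2 ratio of a state's mean to the mean of the 5 states. Fgf2, Fgf18 and Fgfr1 are highest in progenitor-like, Fgf10 in preadipocyte-like, Fgf7 in adipogenesis-regulatory-like, Fgf9 in lobular-like and Fgfr2 in ECM remodelling-like barcodes.

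Across the 5 stages there was 1 library each and so no test. Ratios are given with exact intervals that cover counting error only. Of the members, 4 of 10 had a highest stage at least 2 times the lowest, and 30.2% of 14245 genes did, with a median ratio of 1.66. The epithelial ligands Fgf7 and Fgf10 moved apart. Fgf7 was at 44.6 CPM in the puberty library and 39.7 CPM in the adult library, at 26.9 CPM during pregnancy, and at 41.4 CPM and 51.9 CPM during lactation and involution. The pregnancy library was thus the lowest, at 0.676 times the adult level (95% interval 0.633 to 0.722), and lactation was 1.54 times pregnancy (1.44 to 1.65). Fgf10 was at 35.3, 38.7 and 36.3 CPM in puberty, adult and pregnancy, then at 25.9 CPM in lactation and 24.8 CPM in involution. The last 2 stages did not differ beyond counting error (ratio 0.956, 0.894 to 1.02).

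Fgf18 was also lower in the last 2 stages, and Fgf2 was lower there than in the adult and pregnancy libraries. Fgf18 was at 44.8, 42.1 and 43.3 CPM from puberty to pregnancy and at 33.1 CPM in lactation and 32.0 CPM in involution. Fgf2 started at 38.6 CPM in puberty, was at 50.9 CPM and 50.4 CPM in the adult and pregnancy libraries, and then at 44.1 CPM and 35.0 CPM. Fgf1, the ligand of all receptor forms, was near 10 CPM in puberty (9.83), pregnancy (10.8) and lactation (10.7), and lower in the adult (5.25) and involution (6.11). Fgf9 ranged only from 2.75 CPM in involution to 4.28 CPM in lactation.

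Among receptors, the levels of Fgfr1 hardly differed, from 256.8 CPM in lactation to 288.4 CPM in pregnancy (ratio 1.12, 1.10 to 1.15). Fgfr2 was at 3.61, 3.44 and 3.16 CPM from puberty to pregnancy and at 1.41 CPM in lactation, and involution was 2.13 times lactation (1.66 to 2.75). The lactation library, with 0.447 times the pregnancy level (0.340 to 0.586), was the lowest of all 13. Fgfrl1 went the other way, with 4.64, 3.55 and 3.51 CPM in the first 3 stages, 7.71 CPM in lactation and 9.32 CPM in involution. Fgfr3 rested on 16 to 50 UMIs per stage. Milk genes in fibroblast barcodes summed to 597 CPM in lactation. Epithelial markers summed to 24.6, 33.9 and 56.1 CPM from puberty to pregnancy, 8.08 CPM in lactation and 14.1 CPM in involution, and endothelial markers to 23.5, 27.5, 42.3, 5.41 and 16.5 CPM. Their part in these values was not tested.

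The hormone comparison asked how a progestin with estrogen altered the fibroblasts of virgin glands. Over all fibroblasts, Fgf18 and Fgf9 fell in the MPA+E libraries and no member rose. Both belong to the ligands read mainly by mesenchymal receptors. Genes below the adjusted p threshold of 0.05 made up 4.33% of 15642 tested (2.69% higher, 1.64% lower), and 2 of 10 members passed. Fgf18 was at 36.2 and 43.6 CPM in the placebo libraries and at 16.5 and 16.6 CPM under MPA+E, groups that do not overlap. Its log2 difference was −1.27 (SE 0.156, adjusted p = 0.0212, edgeR quasi-likelihood test). Fgf9 was at 2.53 and 2.93 CPM with placebo and at 0.368 and 0.702 CPM with MPA+E, on 32 and 64 UMIs, a log2 difference of −2.33 (SE 0.380, adjusted p = 0.0422). With 2 libraries a group, both calls depended on each placebo library. Without placebo 1 the adjusted p was 0.0515 for Fgf18 and 0.143 for Fgf9, and without placebo 2 it was 0.0842 and 0.201. The Fgf9 call was also lost without the 5% of barcodes with most UMIs (adjusted p = 0.0530).

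Of the other 8 members, 7 had lower means under MPA+E without passing the test. Fgf10 was at 54.1 and 40.1 CPM with placebo and 30.5 and 17.1 CPM with MPA+E (log2 difference −0.98, SE 0.262, adjusted p = 0.133). Fgf2 was at 50.4 and 48.8 CPM against 23.9 and 32.0 CPM (−0.81, SE 0.185, adjusted p = 0.0937). Fgfr2 was at 6.85 and 4.29 CPM against 2.52 and 2.70 CPM (−1.07, SE 0.230, adjusted p = 0.0834). In these 3 genes the groups did not overlap, nor did they in Fgf1, Fgfrl1 and Fgf7. The share of all genes without overlap was not counted, here or within states below. A lack of overlap thus does not set a gene apart. Fgf7 alone had a higher mean, with 47.2 and 40.8 CPM against 65.6 and 51.0 CPM (0.41, SE 0.120, adjusted p = 0.154). Fgfr1 replicates spread from 215.8 to 351.2 CPM within MPA+E around the placebo values of 269.2 and 314.7 CPM. The median log2 difference of the 10 members was −0.71, against 0.01 over all genes. Traces of other cells moved with the treatment: epithelial markers summed to 30.8 to 33.5 CPM with placebo and 6.88 to 7.70 CPM with MPA+E, pericyte markers to 48.0 to 48.3 and 19.8 to 21.2 CPM, and endothelial markers to 14.6 to 14.7 and 44.1 to 46.0 CPM. Their part in the result was not tested. In epithelial barcodes of the 8 libraries that had 30 or more, Fgf18, Fgf9 and Fgf10 were at most 3.02, 4.29 and 0.755 CPM. The Fgf9 value, on 3 UMIs in hyperplasia 2, lay above its placebo fibroblast levels. Levels in pericytes and endothelial cells were not measured.

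Within states, most member calls fell in the progenitor-like state. There, 14.3% of 13283 genes passed (7.17% higher, 7.09% lower), and 6 of 9 members tested did, 5 of them lower. Fgf18 was at 70.9 and 76.4 CPM in placebo and 27.2 and 30.8 CPM in MPA+E progenitor-like barcodes (−1.30, SE 0.130, adjusted p = 0.00273). Fgf10 was at 19.5 and 23.3 CPM against 7.97 and 6.09 CPM (−1.57, SE 0.173, adjusted p = 0.00345). Fgf2 was at 97.9 and 87.0 CPM against 39.2 and 51.7 CPM (−0.97, SE 0.164, adjusted p = 0.0144). None of these groups overlapped. Fgf1 fell from 3.06 and 4.52 CPM to 1.25 and 1.30 CPM (−1.53, SE 0.297, adjusted p = 0.0225), and Fgf9 from 3.06 and 3.24 CPM to 0.551 and 1.17 CPM (−1.78, SE 0.378, adjusted p = 0.0303). Fgf7 was the member that rose, from 43.5 and 40.5 CPM to 61.3 and 58.7 CPM (0.56, SE 0.0898, adjusted p = 0.0122). The calls of Fgf18 and Fgf10 held without any single library. Those of Fgf2, Fgf7 and Fgf9 were lost without placebo 1 (adjusted p of 0.0967, 0.110 and 0.132) and without placebo 2 (0.0755, 0.110 and 0.162), and that of Fgf1 without placebo 2 (0.149).

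In the lobular-like state, 3.74% of 10966 genes passed (2.45% higher, 1.29% lower), and Fgf18 and Fgf9 were 2 of 8 members tested. Fgf18 was at 61.5 and 69.2 CPM with placebo and 18.6 and 14.5 CPM with MPA+E (−1.89, SE 0.166, adjusted p = 0.00251), a 3.71-fold lower fitted level. Fgf9 was at 18.1 and 16.9 CPM, on 74 and 92 UMIs, against 0.830 and 4.30 CPM, on 10 and 13 UMIs (−3.31, SE 0.567). Fgf9 passed the filter on low counts through its placebo values, so no p is given, though it is counted among the 2. Placebo and MPA+E did not overlap in either gene, although the MPA+E replicates differed from each other in Fgf9. The Fgf18 call was lost without placebo 1, and that of Fgf9 without placebo 1 or placebo 2. The log2 difference of Fgf9 ran from −4.35 to −1.89 when single libraries were left out. Lobular-like barcodes were 5.66% and 7.10% of fibroblasts with placebo and 11.9% and 2.87% with MPA+E.

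In ECM remodelling-like barcodes, 0.990% of 12222 genes passed (0.466% higher, 0.524% lower), and of 9 members tested the receptor Fgfr2 was the one called. It was at 23.7 and 14.1 CPM with placebo and 6.75 and 5.88 CPM with MPA+E (−1.64, SE 0.247, adjusted p = 0.0452), and lost its call without placebo 1 (adjusted p = 0.231). In preadipocyte-like barcodes, where 3.68% of 12915 genes passed (2.61% higher, 1.07% lower), edgeR called 0 of 9 members, and 4 had an unadjusted p under 0.05 (Fgf7, Fgfr2, Fgf10 and Fgf18), as did 2189 of the 12915 genes. Fgf10 there was at 143.3 and 105.4 CPM with placebo and 92.8 and 55.6 CPM with MPA+E (−0.76, SE 0.225, adjusted p = 0.171). Fgf7 was at 39.9 and 29.8 CPM against 63.3 and 53.0 CPM (0.73, SE 0.132, adjusted p = 0.0516). Adipogenesis-regulatory-like barcodes had 3.40% of 11673 genes called (2.33% higher, 1.07% lower) and 0 of 7 members by edgeR, with 4 at an unadjusted p under 0.05 (Fgf2, Fgf1, Fgfrl1 and Fgf18), as had 1917 of the 11673 genes. Fgf7, which was highest in that state, was at 122.5 and 106.8 CPM with placebo and 145.7 and 110.0 CPM with MPA+E, values that overlap.

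**Figure D3:**
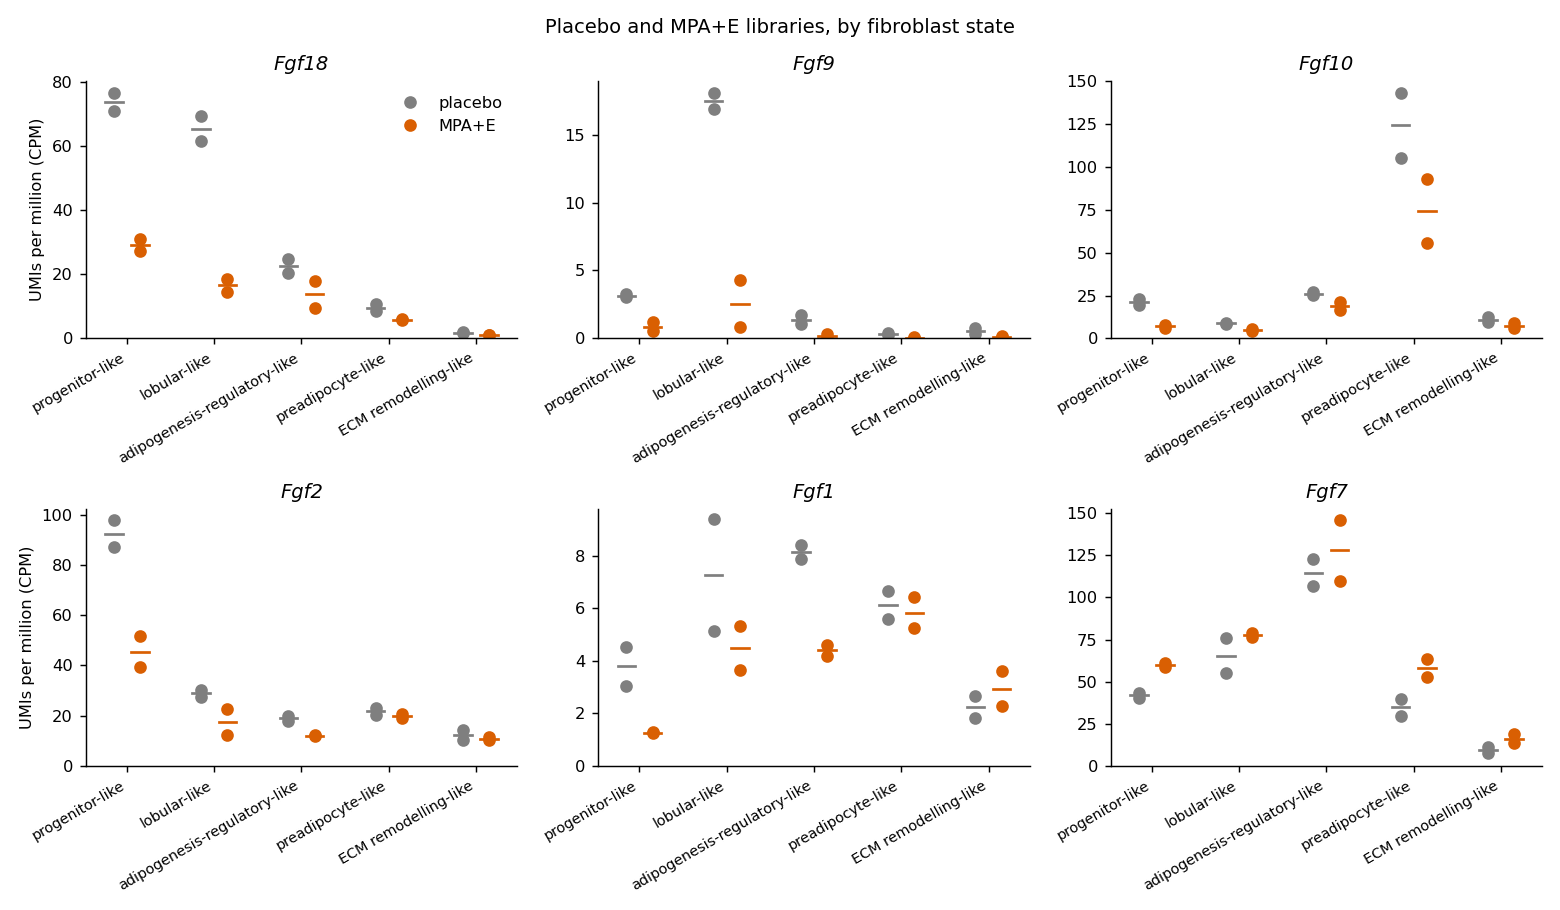
CPM of 6 ligand genes in each of 5 fibroblast states, with gray points for the 2 placebo libraries, orange points for the 2 MPA+E libraries and a bar at each mean. In the progenitor-like state Fgf18, Fgf9, Fgf10, Fgf2 and Fgf1 lie lower and Fgf7 higher under MPA+E without overlap, and Fgf10 stays highest in the preadipocyte-like state, at 74.2 CPM under MPA+E and 124.4 CPM with placebo.

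Whether the hormone difference itself varied between states was tested over the 4 libraries and 5 states in one fit with the library as a block. It varied for 6 of 10 members, against 18.7% of 13807 genes: Fgf18 (adjusted p = 0.00780), Fgf2 (0.0123), Fgf1 (0.0179), Fgfrl1 (0.0365), Fgf7 (0.0450) and Fgf10 (0.0478). Against the mean of the other 4 states, the progenitor-like difference was more negative for Fgf2 by −0.56 (SE 0.143, adjusted p = 0.0162), for Fgf10 by −0.87 (SE 0.233, adjusted p = 0.0208) and for Fgf1 by −1.21 (SE 0.293, adjusted p = 0.0111), where 12.8% of genes passed. The lobular-like difference of Fgf18 was more negative by −0.99 (SE 0.213, adjusted p = 0.0375), a state where 0.999% of genes passed. The ECM remodelling-like difference of Fgfrl1 was more positive by 0.65 (SE 0.154, adjusted p = 0.0110), where 11.0% passed. No member was called for the preadipocyte-like or the adipogenesis-regulatory-like state, where 5.03% and 1.27% of genes passed, and no single state was called for Fgf7. At an unadjusted p under 0.05 by edgeR, 4 members passed for the preadipocyte-like and 3 for the adipogenesis-regulatory-like state, Fgf7 in both, as did 2455 and 1577 of the 13807 genes. When each of the 4 libraries was left out in turn, Fgf18 and Fgf1 kept their call in 2 fits, Fgf2 and Fgf10 in 1, and Fgfrl1 and Fgf7 in 0 (adjusted p between 0.00119 and 0.402 for the 6). For Fgf9 (adjusted p = 0.584), Fgfr2 (0.335), Fgfr3 (0.479) and Fgfr1 (0.593) a difference between states was not detected, which does not show that it was the same in all.

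The raGFP-Wnt1 libraries were compared with the puberty and adult libraries (normal) and with each other in one limma-voom fit over 6 libraries, so both comparisons share the hyperplasia libraries. In hyperplasia the one member called was Fgfrl1, the receptor-like protein without a kinase domain, where 14.0% of 16302 genes passed (7.70% higher, 6.29% lower). It was at 4.64 and 3.55 CPM in the normal libraries and at 9.38 and 9.00 CPM in hyperplasia (1.17, SE 0.271, adjusted p = 0.0410). The call was lost on leaving out puberty, adult, hyperplasia 1 or hyperplasia 2 (adjusted p of 0.167, 0.197, 0.220 and 0.143). Placebo libraries, which are wild type, had 8.65 and 8.35 CPM and involution 9.32 CPM. The ligands Fgf10 (35.3 and 38.7 against 26.4 and 19.6 CPM, −0.74, SE 0.193, adjusted p = 0.0512), Fgf18 (44.8 and 42.1 against 18.2 and 24.2 CPM, −1.08, SE 0.283, adjusted p = 0.0520) and Fgf9 (3.26 and 3.53 against 1.13 and 1.74 CPM, −1.29, SE 0.348, adjusted p = 0.0556) had lower levels in both hyperplasia libraries and missed the threshold. Fgf1 was at 9.83 and 5.25 CPM in the normal libraries and 2.28 and 2.98 CPM in hyperplasia (−1.42, SE 0.423, adjusted p = 0.0687). The other 5 members had log2 differences from −0.16 (Fgfr1) to 0.71 (Fgfr2). Endothelial markers summed to 23.5 and 27.5 CPM in the normal libraries and to 5.77 and 12.8 CPM in hyperplasia, with all 5 detected in each. Muscle markers summed to 8.39 and 4.62 CPM and then to 0.726 and 1.33 CPM, with 2 and 1 of 4 at 0 in hyperplasia, and epithelial markers overlapped (24.6 and 33.9, then 26.6 and 75.1 CPM). Their part in the result was not tested. Strain, reporter, gate, age and mice differ between hyperplasia and normal together with the transgene, and these cannot be told apart.

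Tumors differed from hyperplasia in opposite directions for Fgf10 and Fgf9. Genes called made up 29.3% of 16302 (15.4% higher, 13.9% lower), and 2 of 10 members were among them. Fgf10 was at 26.4 and 19.6 CPM in hyperplasia and at 4.93 and 4.08 CPM in tumor, lower in both mice (−2.33, SE 0.218, adjusted p = 0.00373, a 5.02-fold lower fitted level). This call held without any single library. Fgf9 was at 1.13 and 1.74 CPM in hyperplasia and at 6.88 and 4.92 CPM in tumor, higher in both mice (2.03, SE 0.319, adjusted p = 0.0110, a 4.09-fold higher fitted level). Without hyperplasia 1 or hyperplasia 2 its adjusted p was 0.0925 or 0.0628. Fgfrl1 was at 12.1 and 17.9 CPM in tumor against 9.38 and 9.00 CPM (0.68, SE 0.225, adjusted p = 0.0624). Fgf7 was at 45.9 and 46.6 CPM in hyperplasia and 47.1 and 45.9 CPM in tumor, a log2 difference of 0.01 (SE 0.145, adjusted p = 0.964). Thus the other ligand of epithelial Fgfr2 differed by less than its spread where Fgf10 fell. Fgf18, Fgf2, Fgf1, Fgfr1, Fgfr2 and Fgfr3 had log2 differences from −0.53 (Fgf2) to 0.90 (Fgf1), none called. Without tumor 1, which leaves 1 tumor library, Fgf18, Fgf2, Fgfr2 and Fgfrl1 were called as well. The share of all genes called in that fit is not given beside them, so this does not set these members apart.

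**Figure D4:**
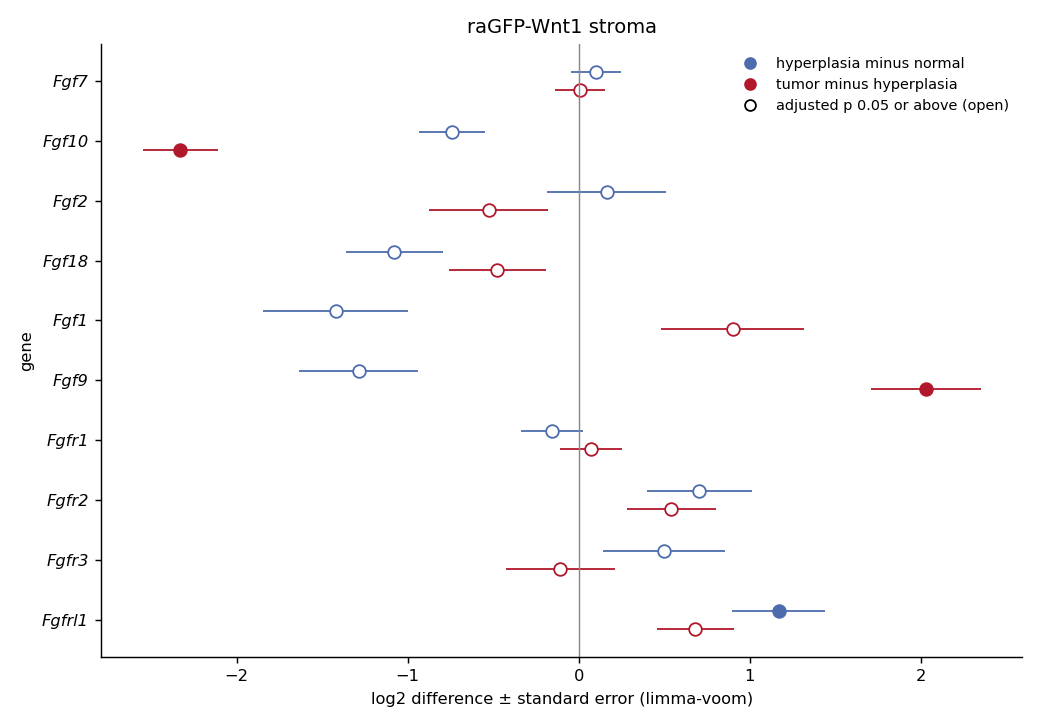
Log2 differences with standard errors from limma-voom for each gene, hyperplasia minus normal (blue) and tumor minus hyperplasia (red), filled where the adjusted p is below 0.05. Filled points are Fgfrl1 in hyperplasia (1.17) and, in tumor, Fgf10 (−2.33) and Fgf9 (2.03).

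State makeup differed between hyperplasia and tumor. Myofibroblastic-like barcodes (Acta2, Tagln, Lrrc15) were 6.75% and 6.50% of hyperplasia and 40.7% and 70.5% of tumor fibroblasts, and ECM remodelling-like barcodes were 44.7% and 39.9% and then 11.9% and 9.30%. The myofibroblastic-like name rests on markers summed over hyperplasia and tumor together. It was not checked within the hyperplasia barcodes alone. The paper reports Acta2-positive fibroblasts in tumors but not in hyperplastic glands. It also reports that tumors lacked Cd36-positive committed preadipocytes. The preadipocyte-like name was not checked within the tumor barcodes alone, so these may be unlike those of hyperplasia. Fgf10 was lower in tumor within most states, given here as values with no test. In preadipocyte-like barcodes it was at 43.5 and 42.5 CPM in hyperplasia and 10.7 and 17.3 CPM in tumor. In myofibroblastic-like barcodes it was at 17.8 and 19.7 CPM and then 2.10 and 2.95 CPM. ECM remodelling-like (22.8 and 18.5, then 12.9 and 4.81 CPM) and progenitor-like barcodes (21.3 and 7.50, then 3.57 and 2.10 CPM) had the same order, and in adipogenesis-regulatory-like barcodes the groups overlapped (21.7 and 12.1, then 11.7 and 12.5 CPM). At the resolution of 0.5 fewer barcodes of these libraries were preadipocyte-like (982 in place of 4265). Fgf10 was then at 39.6 and 44.7 CPM in hyperplasia and at 6.09 and 47.4 CPM in tumor in that state, of which the tumors had 58 and 15 with 3 and 10 UMIs of Fgf10, so the order did not hold there. It was at 32.8 and 17.3, then 6.88 and 11.0 CPM in progenitor-like and at 17.5 and 20.6, then 2.16 and 2.92 CPM in myofibroblastic-like barcodes.

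Fgf9 in tumor lay mainly in the myofibroblastic-like state, which held 89.0% of its UMIs in 55.6% of barcodes, and 22.4% in 6.63% of barcodes in hyperplasia (14.5% in 7.09% at the resolution of 0.5). Its level there was 5.64 and 4.04 CPM in hyperplasia and 12.1 and 6.22 CPM in tumor (3.61 and 2.57, then 12.8 and 6.69 CPM at the resolution of 0.5). In progenitor-like barcodes it was at 0.730 and 2.71 CPM and then at 0.578 CPM and 0, the last on 108 barcodes (1.07 and 2.74, then 1.60 and 0.532 CPM at 0.5). In hyperplasia, preadipocyte-like barcodes held 39.3% and progenitor-like barcodes 31.6% of Fgf9 UMIs. Preadipocyte-like levels were 2.14 and 2.71 CPM and then 2.80 and 2.23 CPM. At 0.5 they were 0 in both hyperplasia libraries and 2.03 and 14.2 CPM in tumor, on 1 and 3 UMIs. In adipogenesis-regulatory-like barcodes Fgf9 was at 1.00 and 0.714 CPM and then at 3.89 and 4.16 CPM, on 2 to 5 UMIs each, and in ECM remodelling-like barcodes at 0.0483 CPM and 0 and then at 2.58 and 0.497 CPM. At 0.5 a small lobular-like state of 138 and 62 hyperplasia barcodes had 10.3 and 32.6 CPM, on 15 and 17 UMIs. Of 2 myofibroblastic-like clusters, that led by Comp, Fmod and Col11a1 (4234 barcodes) had 17.0 CPM of Fgf9 and 72.7% of the Fgf9 UMIs of the 4 libraries, and that led by Areg and Cxcl5 (3307 barcodes) had 1.01 CPM. Comp and Fmod encode matrix proteins of cartilage and tendon. Fgfrl1 was at 21.9 and 12.4 CPM in the same clusters. Within the myofibroblastic-like state Fgfrl1 was at 9.86 and 9.74 CPM in hyperplasia and 15.5 and 18.6 CPM in tumor. It was also higher in tumor in progenitor-like (5.70 and 5.70, then 6.73 and 9.96 CPM) and adipogenesis-regulatory-like barcodes (8.34 and 9.28, then 12.5 and 12.5 CPM). The tumor values rested on 128 and 19 UMIs in the former and on only 16 and 12 UMIs in the latter. The groups overlapped in ECM remodelling-like (11.7 and 11.4, then 10.85 and 20.4 CPM) and preadipocyte-like barcodes (9.15 and 9.97, then 9.74 and 13.85 CPM). Summed epithelial markers ranged from 26.6 to 75.1 CPM in hyperplasia and from 2.97 to 8.57 CPM in tumor, and endothelial markers from 5.77 to 12.8 CPM and from 2.96 to 3.71 CPM. Their part in these results was not tested.

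Epithelial barcodes (at least 1 UMI of Epcam and 10 keratin UMIs per 10000) numbered 1095 over all libraries, the remainder of a sort that removed most epithelium. In the 8 libraries with at least 30, compartments were compared in a fit where 52.9% of 13520 genes passed (30.4% higher in fibroblasts, 22.4% lower). These were adult, pregnancy, placebo 2, MPA+E 1, MPA+E 2, hyperplasia 2, tumor 1 and tumor 2. Wild-type and raGFP-Wnt1 libraries, with their different gates, thus entered together. Ligands and receptors split. Fgf10, Fgf7, Fgf18, Fgf2, Fgf9 and Fgfr1 were higher in fibroblasts, and Fgfr2, Fgf1, Fgfrl1 and Fgfr3 in epithelial barcodes. Fgf10 was at 23.9 ± 14.6 CPM (SD, n = 8) in fibroblasts and at 0 epithelial CPM in 7 of 8 libraries, with 0.755 CPM in pregnancy. Over the 8 libraries it had 13965 fibroblast and 2 epithelial UMIs, a ratio per UMI of 102.2 (95% interval 28.3 to 844, counting error only). Fgf7 had 29740 and 12 UMIs (36.3, 20.8 to 70.2), and Fgf18 16049 and 14 UMIs (16.8, 10.0 to 30.7). These 3 passed the filter on low counts through their fibroblast values alone, as did Fgf9 below, so their ratios are given without a p.

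The receptor of both epithelial ligands had the opposite distribution. Fgfr2 was at 4.85 ± 2.77 CPM in fibroblasts and 56.8 ± 20.4 CPM in epithelial barcodes, higher in the latter in 8 of 8 libraries (−3.52 fibroblast minus epithelial, SE 0.275, adjusted p = 3.89e-07). The lowest epithelial value, 41.9 CPM, was above the highest fibroblast value, 10.7 CPM. Fgf1 was at 5.45 ± 2.47 CPM in fibroblasts against 53.4 ± 23.4 CPM (−3.16, SE 0.311, adjusted p = 3.20e-06), the one ligand higher in epithelium. Fgfrl1 was at 8.42 ± 4.77 against 42.1 ± 24.3 CPM (−2.26, SE 0.271, adjusted p = 1.80e-05). Fgfr1 was present in both compartments, at 279 ± 45.1 and 141.3 ± 39.4 CPM (1.11, SE 0.161, adjusted p = 8.71e-05), and Fgf2 at 42.5 ± 13.5 and 8.15 ± 5.26 CPM (2.49, SE 0.402, adjusted p = 0.000213).

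Fgf9 and Fgfr3 were less certain. Fgf9 rested on 2017 fibroblast and 5 epithelial UMIs (ratio 5.91, 2.53 to 18.2, counting error only) and was higher in fibroblasts in 6 of 8 libraries. For Fgfr3 (0.674 ± 0.105 against 5.32 ± 7.60 CPM, −2.46, SE 0.683, adjusted p = 0.00886), placebo 2 held 44 of 68 epithelial UMIs. After thinning each barcode to 3000 UMIs, the median share of barcodes with a UMI over the libraries was 5.48% in fibroblasts and 0% in epithelium for Fgf10, 11.4% and 0% for Fgf7, 1.22% and 17.4% for Fgfr2, and 53.3% and 36.6% for Fgfr1. Median depths were 8117 and 6917 UMIs before thinning.

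**Figure D5:**
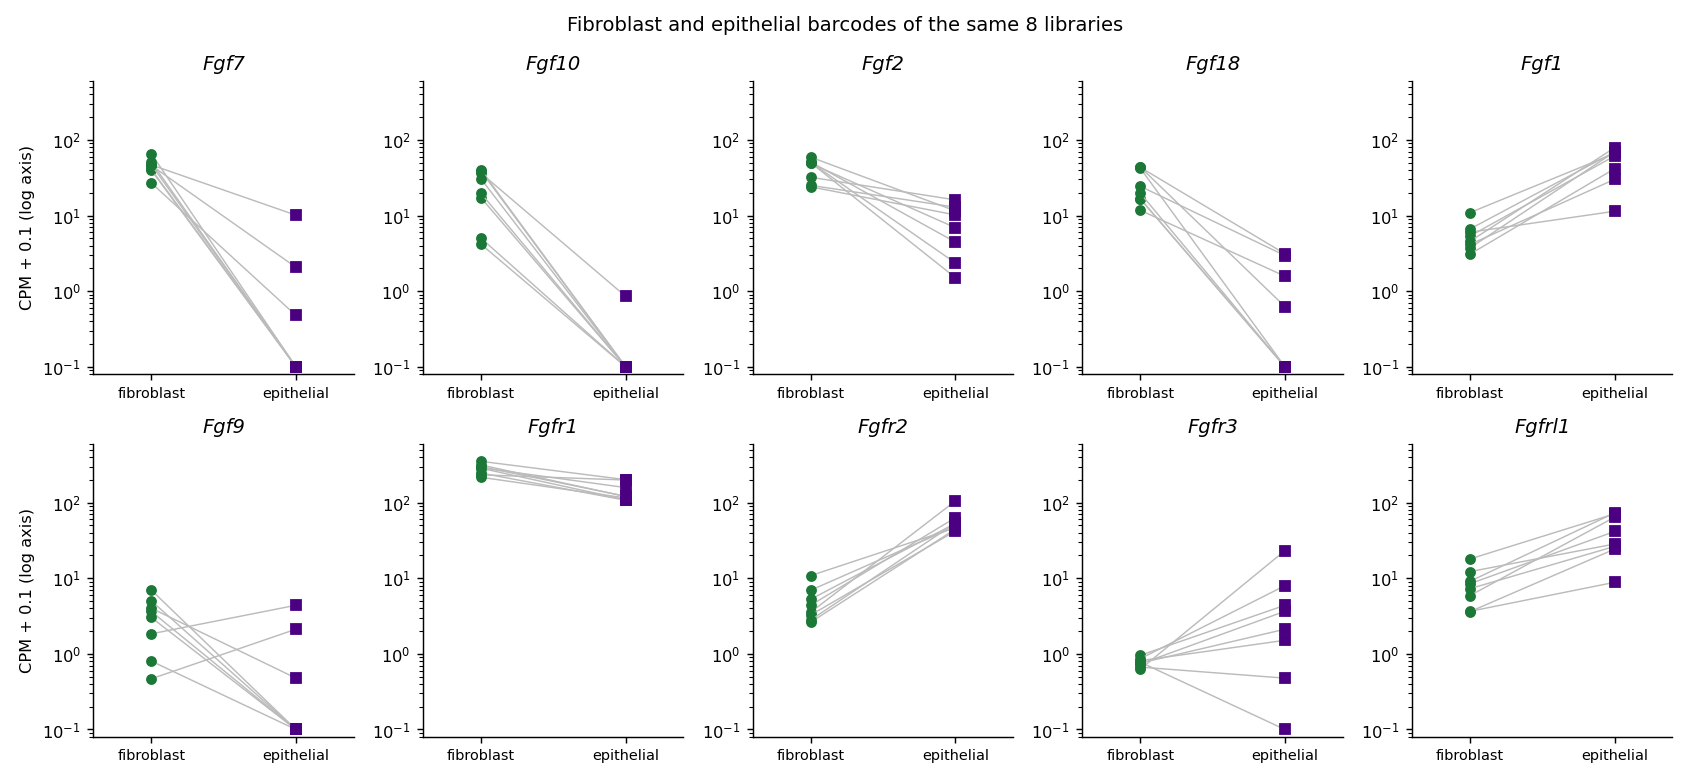
CPM of each gene (plus 0.1, log axis) in fibroblast (green circles) and epithelial barcodes (purple squares) of the same 8 libraries, with a line joining the compartments of a library. Fgfr2, Fgf1 and Fgfrl1 are higher in epithelial barcodes in all 8 libraries, and Fgf10 is at 0 in epithelial barcodes of 7 libraries.

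Another 51 genes of the pathway were followed as a list: 17 other family members, 7 adaptors, 10 feedback regulators and targets, 8 co-receptors and binding proteins, and 9 genes of heparan sulfate synthesis and trimming. Fgf3, Fgf4 and Fgfbp1 had no UMI in fibroblast barcodes. In the hormone comparison 2 of 37 tested rose and 1 fell, against 2.69% and 1.64% of all genes, with a median log2 difference of −0.02. Fgf16, a ligand of the Fgf9 family, rose from 3.10 to 8.78 CPM (means of 2, log2 difference 1.51, SE 0.154, adjusted p = 0.0131), the reverse of Fgf9. Gpc1, a cell surface heparan sulfate proteoglycan, rose from 5.88 to 11.8 CPM (1.02, SE 0.143, adjusted p = 0.0287), and Sulf1, which trims heparan sulfate, fell from 151.8 to 80.9 CPM (−0.90, SE 0.141, adjusted p = 0.0381). All 3 calls were lost without placebo 1 (adjusted p of 0.0887, 0.163 and 0.0808 for Fgf16, Gpc1 and Sulf1) and without placebo 2 (0.101, 0.192 and 0.170). In the progenitor-like state 4 of 33 rose (Fgf16 by 2.67, Gpc1 by 1.74, Etv5 by 0.81 and Sulf2 by 0.63 on the log2 scale) and 8 fell, against 7.17% and 7.09% of all genes. Those 8 included 5 of 9 heparan sulfate genes, among them Sulf1 (−1.37), Hs6st2 (−1.18) and Glce (−1.15), and the family member Fgf13 (−2.73). The calls of Fgf16, Sulf1 and Glce held without any single library. Those of Gpc1 and Etv5 were lost on leaving out any of the 4 (adjusted p between 0.0576 and 0.187), those of Sulf2 and Fgf13 without either placebo library (0.0738 to 0.112), and that of Hs6st2 without placebo 1, placebo 2 or MPA+E 2 (0.192, 0.190 and 0.101). In preadipocyte-like barcodes Fgf16 (2.58) and Gpc1 (1.14) rose among 35 tested, against 2.61% of all genes, and Gpc1 lost its call without placebo 2 (adjusted p = 0.0767). By edgeR none of the list passed in the other 3 states, where 4 (ECM remodelling-like), 7 (adipogenesis-regulatory-like) and 4 (lobular-like) had an unadjusted p under 0.05, as did 1514 of 12222, 1917 of 11673 and 1846 of 10966 genes.

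In hyperplasia 8 of 39 rose and 2 fell, against 7.70% and 6.29% of all genes. Feedback regulators and targets made up 5 of the 8, and all 10 of that group had a positive difference (median 0.83, against −0.01 over all genes). Puberty, 1 of the 2 normal libraries, was the lowest of all 13 libraries for 8 of these 10 genes (Spry1, Spry4, Spred1, Spred2, Dusp6, Il17rd, Etv1 and Etv5). Spry4 rose from 9.00 to 54.2 CPM (2.55, adjusted p = 0.00671) and Spry1 from 29.0 to 114.4 CPM (1.94, adjusted p = 0.00671), both inhibitors of receptor signalling. Frs3, an adaptor, rose from 0.293 to 2.38 CPM (2.98, adjusted p = 0.0125), and Fgf20 was at 34 UMIs in hyperplasia and 0 in the normal libraries, at least 10.8-fold higher against a floor of 3 counts over the group. Fgf20, 1 of the 8, passed the filter on low counts through hyperplasia alone, so no p is given for it. Gpc1 (6.32 to 3.02 CPM, −1.13, adjusted p = 0.0350) and Hs6st2 (1.69 to 0.302 CPM, −2.44, adjusted p = 0.0483) fell. The other 5 calls were each lost on leaving out single libraries. Spry4 and Spry1 lost theirs without puberty (adjusted p of 0.0708 and 0.0719), hyperplasia 1 (0.0704 and 0.0728) or hyperplasia 2 (0.0643 for both), and Frs3, Gpc1 and Hs6st2 on leaving out any of the 4 normal and hyperplasia libraries (0.0801 to 0.258). Among the stage libraries Spry4 was 5.30 times and Spry1 4.68 times higher in lactation than in puberty.

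In tumor against hyperplasia 9 of 39 rose and 5 fell, against 15.4% and 13.9% of all genes. Gpc1 rose from 3.02 to 75.2 CPM (4.65, adjusted p = 0.000955), Hs6st2, a heparan sulfate sulfotransferase, from 0.302 to 57.3 CPM (7.48, adjusted p = 0.00208), and the target Etv4 from 2.13 to 20.1 CPM (3.11, adjusted p = 0.0127). Spry4 fell from 54.2 to 18.9 CPM (−1.54, adjusted p = 0.00801) and Flrt3, a membrane protein that binds FGF receptors, from 13.8 to 3.65 CPM (−1.91, adjusted p = 0.00388). Flrt1 (−1.75, adjusted p = 0.0163) fell too. Fgf20 had 34 UMIs in hyperplasia and 3 in tumor (ratio 16.7, 5.26 to 85.1, counting error only), and Fgf23 had 8 and 131 (11.1, 5.47 to 26.2). Fgf20 is counted among the 5 and Fgf23 among the 9. No p is given for them because their lower group had few counts. The calls of Gpc1, Hs6st2 and Flrt3 held without any single library. Those of Etv4, Spry4 and Flrt1 were lost without hyperplasia 1 (adjusted p of 0.101, 0.0687 and 0.111) and without hyperplasia 2 (0.0759, 0.0593 and 0.0656). In the stages, the widest ratios were those of Fgf21, a circulating FGF (0.185 CPM in puberty to 9.95 CPM in involution, 53.9 times, 28.2 to 118), Frs3 (11.0 times, 4.51 to 34.9), Fgf23 (8.28 times, 3.20 to 27.2) and Fgf16 (7.42 times, 5.10 to 11.2).

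Between compartments 15 of 35 tested were higher in fibroblasts and 7 in epithelium, against 30.4% and 22.4% of all genes. Sulf1 (3.20, adjusted p = 4.95e-07) was among the 15. So was Flrt2, at 206.6 CPM in fibroblasts and 4.56 CPM in epithelial barcodes, on 47 epithelial UMIs. It passed the filter on low counts through its fibroblast values alone, so no p is given. Fgf11 was at 3.13 CPM in fibroblasts and 0.476 CPM in epithelial barcodes, too few counts for a p, and Fgf16 had 2486 fibroblast and 0 epithelial UMIs, at least 12.1-fold higher. Both are counted among the 15. Feedback regulators and targets split 5 to 5. Dusp6, a phosphatase that dampens the signal, was at 36.6 CPM in fibroblasts and 189.7 CPM in epithelial barcodes (−2.32, adjusted p = 5.34e-07), and Etv4 (−2.55, adjusted p = 5.08e-05) and Etv5 (−1.93, adjusted p = 1.56e-05) were on the same side. Hs6st2 (−2.34, adjusted p = 0.0384) kept its call in 4 of 11 alternatives. Its fibroblast level in these libraries ran from 0.304 to 72.4 CPM, the highest in tumor 2.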

How the data were processed

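The authors deposited, for each of 13 libraries, a matrix of raw UMI counts per gene and barcode with no normalization. Their processing notes name Cell Ranger 6.1.2 and the build mm10, and the annotation release is not given in the sources used here. Gene positions are from GENCODE on GRCm38 and promoters from RefSeq. The 10 members, the pathway list and the tests were chosen with earlier results of these data known.

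Fibroblast and epithelial barcodes were selected as stated in the report, without a doublet caller, and UMI counts were summed per library, and per state, in Python 3.11.15 (pandas 2.3.3, scipy 1.17.1). CPM values are UMIs per 1000000 UMIs of the same barcodes. Libraries of the stages, of the hormone groups and of raGFP-Wnt1 mice formed 3 sets, each integrated with Seurat 5.3.0 in R 4.3.3 (reciprocal principal components, 1000 features without members and markers, 30 dimensions, resolution 0.3). A cluster took the name of its best state when at least 3 of that state's markers were raised by a log2 fold of 1, with 1 of them among the cluster's 10 leading genes or at least 4 raised. No other cell type's mean could reach 2, and no other state could have more markers among those 10. A cluster with a median depth under 1/3 of its libraries' and no marker among the 10 stayed unnamed. These limits were chosen once the clusters' tables were known.

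Hormone groups and compartments were tested with edgeR 4.0.16 (quasi-likelihood, TMM, filterByExpr), with the library as a block between compartments. The raGFP-Wnt1 comparisons used limma 3.58.1 (voom) over the puberty, adult, hyperplasia and tumor libraries. P-values were adjusted by Benjamini and Hochberg over all genes tested, with a threshold of 0.05. No source says that the females pooled for 1 library were kept apart, so p-values measure the spread between libraries. The labels give the same mouse for hyperplasia and tumor libraries of one number, so those numbers pair the samples. Deviations of same-mouse libraries from their group means correlated at 0.0954 over 16001 genes. Stages and states were not tested. Stage ratios carry exact 95% intervals, and a count of 0 was bounded by a floor of 3 counts. Intervals and floors cover counting error only. Shares of barcodes were compared after thinning each barcode to 3000 UMIs, which left out shallower barcodes (57431 of 64198 fibroblast and 984 of 1053 epithelial barcodes of the 8 libraries were kept). States with fewer than 50 barcodes in a library were not tested.

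Pathway genes named in the text were at most the 4 called genes with the largest change in each direction of a comparison, and across stages to the 4 largest ratios with at least 30 UMIs in the highest and 3 in the lowest stage. All members are named. On simulated counts the tests recovered, of genes changed by 2-fold, 90% for hormone (15452 genes), 79% for hyperplasia (15976), 86% for tumor (15973) and 82.8% for compartments (13480), and at 4-fold 100%, 100%, 100% and 99% in that order. The simulated spread between libraries was fixed and the same for all genes, and only genes with higher counts were changed. These shares may therefore not hold for the real spread or for low counts, and a gene not called may still differ. Alternatives were DESeq2 1.42.0 or edgeR, other normalizations and filters, other barcode limits, the replicate block and leaving out each library. The test between states, and the finer resolution of 0.5 for shares of UMIs and for levels within raGFP-Wnt1 states, were chosen after seeing the data.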

Additional observations from a re-analysis of the deposited data

Results flagged for a closer look

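The hormone difference varied between the 5 fibroblast states for 6 members, by a test of the difference itself over placebo and MPA+E libraries (edgeR quasi-likelihood with the library as a block, adjusted over 13807 genes, of which 18.7% were called). Fgf18 had an adjusted p of 0.0078, with placebo means of 73.7 and 65.3 CPM in progenitor-like and lobular-like barcodes against 29.0 and 16.6 CPM under MPA+E. Fgf2 had an adjusted p of 0.0123, with 92.4 against 45.5 CPM in progenitor-like and 21.7 against 19.9 CPM in preadipocyte-like barcodes. Fgf1 had an adjusted p of 0.0179, with 3.79 against 1.27 CPM in progenitor-like and 2.25 against 2.95 CPM in ECM remodelling-like barcodes. Fgfrl1 had an adjusted p of 0.0365, with 10.4 against 5.93 CPM in adipogenesis-regulatory-like and 9.37 against 10.0 CPM in ECM remodelling-like barcodes. Fgf7 had an adjusted p of 0.045, with 34.9 against 58.1 CPM in preadipocyte-like and 114.6 against 127.9 CPM in adipogenesis-regulatory-like barcodes. Fgf10 had an adjusted p of 0.0478, with 21.3 against 7.03 CPM in progenitor-like and 26.1 against 18.9 CPM in adipogenesis-regulatory-like barcodes. With each of the 4 libraries left out in turn, between 0 and 3 members kept an adjusted p under 0.05.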

How the results depend on the processing

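Each group had 1 or 2 libraries, and where a library was left out the remaining one was assumed to vary like the others. Over all genes, the hormone comparison called 678, and 1358 with DESeq2 and 2451 with the replicate block, with 2 members called, 5 with DESeq2, 7 with the block and 1 without the 5% of barcodes with most UMIs. The numbers of placebo and MPA+E libraries are shared only as numbers. Deviations of same-number libraries correlated at 0.396. For hyperplasia against normal, 2280 genes became 4017 with DESeq2 and 4810 with the normal and hyperplasia libraries alone. The single member became 5 with DESeq2, 3 with edgeR, 6 with those 4 libraries alone, 3 with at least 100 marker UMIs per 10000, 2 with at least 1000 genes per barcode and 4 without the 5% of barcodes with most UMIs. For edgeR and the barcode limits no count of all genes is printed, so these member counts cannot be set against the share of all genes. No paired analysis was possible because the normal libraries share no numbers with hyperplasia. For tumor against hyperplasia, the mouse as a replicate block gave 4898 genes against 4777 and changed no member's call. With the block, progenitor-like barcodes gave 3727 genes, preadipocyte-like 2145, ECM remodelling-like 808, adipogenesis-regulatory-like 1503 and lobular-like 1383, with 4 members called in preadipocyte-like, 2 in ECM remodelling-like and 3 in adipogenesis-regulatory-like barcodes. Without a filter on low counts, 1576, 738 and 1085 genes were called in preadipocyte-like, ECM remodelling-like and lobular-like barcodes, with 4 members in the first and 2 in the second. The causes were not tested.

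Leaving out 1 library in turn gave 22 to 900 genes and 0 to 4 members for the hormone comparison, 1 to 4810 and 0 to 6 for hyperplasia (the most genes without tumor 1, the fewest without hyperplasia 2), and 242 to 7120 and 1 to 6 for tumor. Within states it gave 648 to 1666 genes and 2 to 6 members (progenitor-like), 256 to 615 and 0 to 1 (preadipocyte-like), 10 to 532 and 0 to 2 (ECM remodelling-like), 0 to 243 and 0 (adipogenesis-regulatory-like), and 12 to 802 and 0 to 3 (lobular-like). Between compartments it gave 6409 to 7050 genes and 9 to 10 members, and between states 0 to 3 members. Signs turned only in uncalled differences, each on leaving out 1 library. In the hormone comparison the log2 difference of Fgfr1 then ran from −0.481 to 0.314 and that of Fgfr3 from −0.393 to 0.235. In hyperplasia Fgf2 ran from −0.0427 to 0.368 and Fgf7 from −0.000578 to 0.221. In tumor Fgf2 ran from −1.05 to 0.00604, Fgf7 from −0.0324 to 0.0601, Fgfr1 from −0.13 to 0.285 and Fgfr3 from −0.209 to 0.00925. Within states, Fgfr1 ran from −0.562 to 0.119 (progenitor-like), −0.242 to 0.531 (preadipocyte-like), −0.591 to 0.871 (ECM remodelling-like), −0.0315 to 0.332 (adipogenesis-regulatory-like) and −0.198 to 0.544 (lobular-like). Fgf2 ran from −0.296 to 0.0297 and Fgfr3 from −0.0102 to 1.35 in preadipocyte-like, Fgfr3 from −0.876 to 0.00876 and Fgfrl1 from −0.0323 to 0.123 in ECM remodelling-like, and Fgf1 from −0.985 to 0.00465 in lobular-like barcodes.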

Other observations

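Clusters that took no state name held some of the highest levels of the members, given here as values with no test. In the stage libraries, a cluster of 155 barcodes led by Pappa2, Lgr5 and Prlr, genes of a metalloprotease, an R-spondin receptor and the prolactin receptor, had 48.1 CPM of Fgf9, on 58 UMIs. It held 5.37% of the Fgf9 UMIs in 0.317% of the barcodes, and it had 83.0 CPM of Fgf7. A cluster of 6535 barcodes led by Stmn4 and Cd55 had 18.5 CPM of Fgf1 and held 30.7% of its UMIs in 13.4% of the barcodes, with 69.8 CPM of Fgf2 and 57.1 CPM of Fgf18. Clusters led by smooth muscle or basal epithelial genes had more Fgf1: 64.0 CPM in 91 barcodes led by Sncg and Myh11, 50.7 CPM in 131 barcodes led by Cnn1 and Krt14 (93.9% from 1 library, with 35.6 CPM of Fgfr2), and 25.4 CPM in 532 hormone barcodes led by Myh11 and Acta2 (78.4% from 1 library). In the hormone libraries 125 barcodes led by Spp1 had 38.2 CPM of Fgfrl1 and 15.0 CPM of Fgfr2, and in the raGFP-Wnt1 libraries 90 barcodes led by Angptl7 and Reln had 30.9 and 24.0 CPM. All of these barcodes met the fibroblast definition.

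Genes with the pattern most like each member were found over 45 sums (5 states in each of 9 wild-type libraries, which share library and depth), by Pearson r of log2(CPM + 5) centred within library among 9533 genes. They were Stxbp6 for Fgf18 (r = 0.965), Tmem43 for Fgf2 (0.964), Pknox2 for Fgf7 (0.957), Zfp462 for Fgfr1 (0.952) and Cd36 for Fgf10 (0.903), the last a marker of the preadipocyte-like state. The values for Fgfrl1 (Gucy1b1, 0.901), Fgfr2 (Hnrnpd, 0.896), Fgf9 (Pkd1, 0.798) and Fgf1 (Man2a1, 0.737) were lower.

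UMIs of Fgf7 and Fgf10, both ligands of epithelial Fgfr2, were found in the same barcodes in every library after thinning to 3000 UMIs, given here as a description of sparse counts. The share of barcodes with a Fgf10 UMI was higher among barcodes with a Fgf7 UMI than among those without in 11 of 13 libraries, such as 10.1% and 7.92% in pregnancy and 2.51% and 0.895% in tumor 2. It was 7.94% and 7.97% in adult, and 6.93% and 8.40% in placebo 2.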
